A study of Mus musculus with 104 samples.

Results

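The cytochrome P450 (Cyp) genes were followed in primary mouse hepatocytes (PMH), liver cells cultured directly from the animal, after transfection of small interfering RNAs (siRNAs). A gene was included if its symbol began with Cyp and a digit, did not end in -ps, and its level averaged 1 CPM or more (the count of a gene per 1000000 counts on genes) over all 104 libraries. This gave 45 of the 108 Cyp genes so named, out of 55416 genes in the files, of which 11974 reached the same level. Cyp21a1 lay just inside the limit at 1.01 CPM and Cyp2u1 just outside it at 0.90 CPM. The members fell into 10 families, with 31 genes in families 1 to 3, 8 in family 4 and 6 in other families.

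The cells were bought from Thermo Fisher Scientific/Gibco, plated in 384-well plates, transfected with Lipofectamine RNAiMAX and collected after 24 h. D1, D2 and D3 share a sequence against Hao1, the liver enzyme glycolate oxidase, and D4, D5 and D6 share a sequence against Ttr, the carrier protein transthyretin. D1 and D4 are the parent siRNAs, D2 carries the glycol nucleic acid (GNA) nucleotide GNA-C in the seed of its guide strand and D3 its isonucleotide GNA-isoC, and likewise D5 carries GNA-G and D6 GNA-isoG. Each siRNA was given at 0.1, 1, 10 and 50 nM, which gave 4 libraries at each dose, beside 8 of mock-treated cells. The labels do not give the strain, sex or age of the animals, nor whether libraries of a group are separate cultures, so p-values here measure only the spread between these samples, which may be technical. The comparison addresses whether a GNA isonucleotide in the seed lessens, relative to the parent siRNA, repression of other transcripts of the kind that microRNAs cause.

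Cytochrome P450 enzymes are heme proteins that insert an oxygen atom into their substrates with electrons from a reductase. In the liver, members of families 1 to 3 clear drugs and other foreign compounds, members of family 4 oxidise fatty acids and eicosanoids, and further families make and break down sterols, bile acids, steroids and vitamin D. Their transcripts are hallmarks of the differentiated hepatocyte, and many decline when hepatocytes are taken into culture.

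Libraries held 3409963 to 6160626 counts on genes, so a gene at 1 CPM rests on few counts. Levels of single genes and of marker lists are given in CPM scaled between libraries by TMM, a size factor for each library. Hao1 lay at 27.6 to 38.7 CPM in mock and 0.390 to 5.18 CPM in D1, D2 and D3 at 50 nM, and Ttr lay at 539 to 723 CPM in mock and 0.521 to 3.78 CPM in D4, D5 and D6 at 10 and 50 nM. In D5 at 0.1 nM it reached 73.5 CPM in 1 library, with a group median of 2.94 CPM. The library of D3 at 10 nM replicate 3 stood apart, with Ttr at 441 CPM against 933 to 1000 CPM in the other 3 libraries of its group. Of 8 hepatocyte markers 7 were found in the files, with a summed level of 19100 to 23420 CPM in mock. Cd5l and Vsig4 of the Kupffer cell list were at 0 in 104 libraries, and Clec4f of the same list and Clec4g of the endothelial list in 103. The summed bile duct cell list (Krt19, Krt7, Epcam, Sox9, Spp1 and Cftr) lay at 150.0 to 177 CPM in mock, 195 to 241 in D1 at 50 nM, 164 to 179 in D2, 199 to 225 in D3, 195 to 249 in D4, 187 to 222 in D5 and 216 to 236 in D6 at that dose. Cftr was at 0 in 1 library and the other 5 genes of the list in none, and its part in the results below was not tested. The Kupffer cell list, carried mainly by Cd68, lay at 31.2 to 42.9 CPM in D4 at 50 nM against 16.2 to 23.3 CPM in mock, and the stellate cell list, carried mainly by Reln, at 8.87 to 16.0 CPM in D3 at 50 nM against 14.2 to 26.5 CPM. The endothelial and the T and B cell lists stayed at or under 3.11 and 4.49 CPM in mock.

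In mock-treated cells, the 4 highest P450 transcripts per kilobase of exon were Cyp3a13, Cyp2c70, Cyp51 and Cyp2c29. Cyp3a13 reached 65.3 ± 6.41 CPM per kilobase (SD, n = 8), Cyp2c70 55.8 ± 4.89, Cyp51 55.5 ± 3.41 and Cyp2c29 39.5 ± 3.60. On this scale Cyp3a13, Cyp2c70 and Cyp51 lay within the sum of their SDs of each other, and Cyp2c29 lay below them. That order depends on the scaling. The exon lengths used were 3328 bases for Cyp2c29 and 2748 for Cyp2c70, against canonical transcripts of 1783 and 1718. For Cyp3a13 they were 3269 against 2957, and for Cyp51 5937 against 4969. In CPM without length, the means were 329 for Cyp51, 213 for Cyp3a13, 153 for Cyp2c70 and 131 for Cyp2c29. Cyp3a13 is a steroid and drug oxidase, Cyp2c70 makes the muricholic acids that set mouse bile apart, Cyp51 is the lanosterol demethylase of cholesterol synthesis, and Cyp2c29 epoxidises arachidonic acid and is a known target of the receptor CAR. The next 6 were Cyp4v3 at 22.7 ± 1.85 CPM per kilobase, Cyp2a5 at 21.0 ± 5.50, Cyp2f2 at 19.6 ± 1.55, Cyp20a1 at 17.7 ± 1.42, Cyp2j6 at 16.1 ± 1.33 and Cyp2e1 at 12.6 ± 1.84. Cyp2a5 varied widely and differed from Cyp4v3 and Cyp2f2 by less than its own SD, and the neighbours from Cyp2f2 to Cyp2j6 lay within the sum of their SDs of each other. At the low end Cyp7b1 lay at 0.142 CPM per kilobase, and this place too depends on the scaling. In CPM without length its mean was 1.67, above Cyp21a1 (0.80), Cyp2a12 (1.10), Cyp4a14 (1.11), Cyp2b9 (1.42) and Cyp2a4 (1.51). Of the 16 textbook sterol, bile acid and inducible P450 genes listed for this work, Cyp7a1 and Cyp8b1 of the classic bile acid route, Cyp1a1, Cyp1b1 and Cyp26a1 were under 1 CPM and are not described further. Of the others on that list, Cyp27a1 lay at 11.7, Cyp1a2 at 11.2, Cyp3a11 at 5.45 and Cyp2b10 at 2.50 CPM per kilobase.

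**Figure D1:**
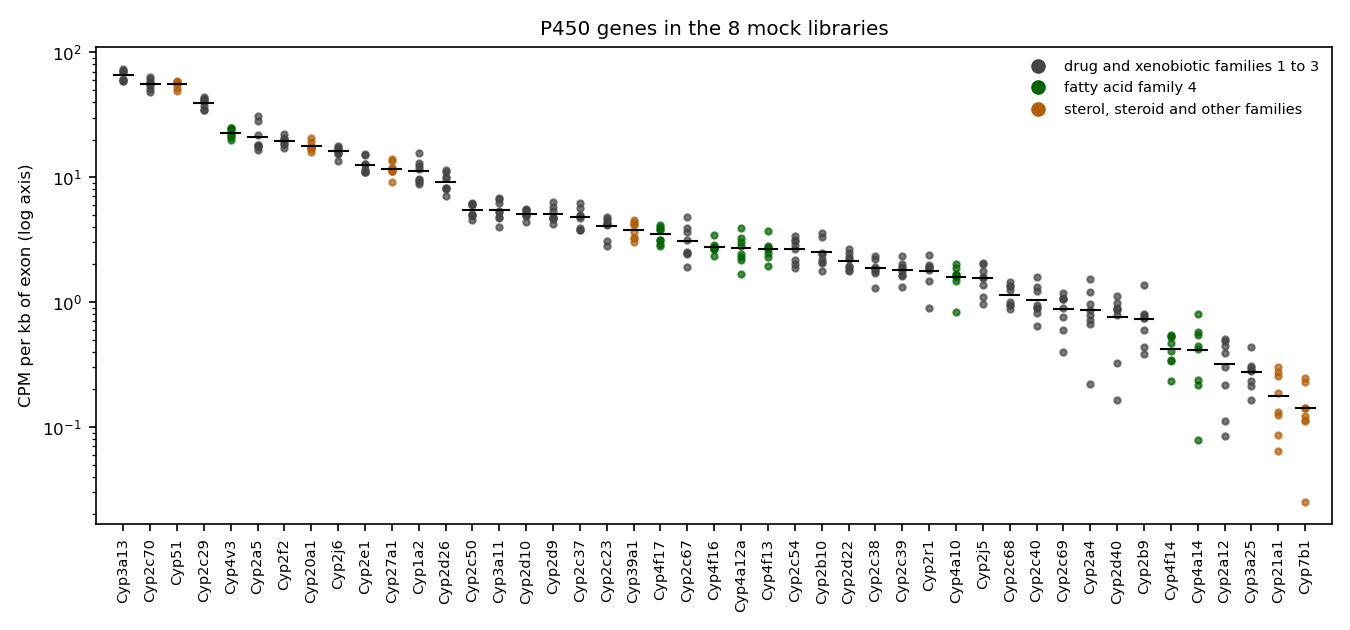
Level of each of the 45 P450 genes in the 8 mock libraries, in CPM per kilobase of exon on a log axis, ordered by mean and coloured by family group; points are libraries and bars are means. On this scale Cyp3a13, Cyp2c70, Cyp51 and Cyp2c29 lead, and Cyp7b1 is lowest at 0.142.

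Reads of close relatives cannot always be assigned, since only uniquely aligned reads were counted. The share of 36-base pieces of a member's canonical transcript that also occur in a transcript of another gene was 64.0% for Cyp2c67, 62.8% for Cyp2c69, 60.4% for Cyp2c40, 56.7% for Cyp2c68, 58.7% for Cyp4a12a, 53.2% for Cyp2a5 and 50.3% for Cyp2d10. Values of these genes, and of Cyp2a4, Cyp4a10, Cyp2c37, Cyp2c50, Cyp2d9 and Cyp3a25 at 41.2% to 52.1%, are uncertain in that respect. The share was 0% for Cyp2c70, Cyp2c23, Cyp3a13, Cyp27a1, Cyp2f2 and Cyp39a1.

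The sum of the 45 genes moved less, relative to its level, than some of its parts, which moved in opposite directions. The summed level was 1381 to 1622 CPM in mock with a median of 1550.0, and at 50 nM its median was 1662 CPM for D1, 1714 for D2, 1515.5 for D3, 1559 for D4, 1687.5 for D5 and 1414.5 for D6. All of these groups overlapped the mock range, though the medians of D1, D2 and D5 lay above the highest mock library. The 12 Cyp2c genes together lay at 315 to 403 CPM in mock, 416 to 488 CPM in D1 and 425.5 to 485 CPM in D2 at 50 nM, 192 to 249.9 CPM in D4 and 222 to 233 CPM in D6, so that D1 and D2 lay above and D4 and D6 below every mock library. The groups of D3 and D5 overlapped the mock range. The D3 libraries lay at 418, 443, 401 and 429 CPM, with only the lowest inside that range. Those of D5 lay at 354, 399, 381 and 434 CPM, with only the highest outside it. In bulk RNA, fewer cells of a type and less RNA per cell cannot be told apart.

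Each siRNA and dose was compared with the 8 mock libraries by edgeR's quasi-likelihood test, and a gene was called at an adjusted p (Benjamini-Hochberg over all genes tested) under 0.05. The 24 comparisons share these mock libraries and are not independent. Of the 45 members, 37 passed the filter on low counts in all 24, 6 in some (Cyp2c69, Cyp2d40, Cyp7b1, Cyp2a4, Cyp2a12 and Cyp4a14) and Cyp2b9 and Cyp21a1 in none. Cyp2a12 entered 3 tests and Cyp4a14 1, only where their treated libraries were high, and their calls there follow in part from the filter. Counts are therefore also given over the 37 genes tested in all 24 comparisons, a restriction chosen after the values were seen, beside the same over the 11066 genes of any kind tested in all 24. There were 138 calls in 35 genes, 19 of them higher only, 7 lower only and 9 higher in some comparisons and lower in others. In 72 of the calls (52.2%) the treated and mock libraries did not overlap, against 53.3% of the calls over all genes, where 5.30% of all tests gave a call without overlap. The 10 genes without a call were Cyp21a1, Cyp2a4, Cyp2b9, Cyp2c40, Cyp2c69, Cyp2d40, Cyp2r1 (a vitamin D hydroxylase), Cyp3a11 (a major drug oxidase), Cyp4f14 and Cyp4f16.

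At 10 and 50 nM most of the P450 genes called with the parent D1 were higher, while with the parent D4 about as many rose as fell. With D1, 15 of 42 P450 genes rose at 10 nM and 14 of 38 at 50 nM, where 8.43% and 11.7% of all genes rose, and 2 and 3 fell, where 10.6% and 14.2% of all genes fell. With D4, 5 of 40 rose and 5 fell at 10 nM and 7 rose and 7 fell at 50 nM, with 12.2% and 16.7% of all genes higher and 14.4% and 17.9% lower. For D4 the share of P450 genes called was close to that of all genes, and for D1 the share that rose was above it. Over the 37 genes tested throughout, 14 rose with D1 at either dose (37.8%), against 8.41% and 11.6% of the genes tested throughout, and the 15 at 10 nM include Cyp4a14. With D4, 4 of these 37 rose and 5 fell at 10 nM, against 12.1% and 14.7%, and 7 rose and 7 fell at 50 nM. The 5 that rose with D4 at 10 nM include Cyp7b1, which did not pass the filter in every comparison. The median log2 fold change was 0.27 and 0.28 over the P450 genes tested with D1 and −0.02 and −0.09 with D4, at 10 and 50 nM, with 0.00 to 0.01 over all genes.

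With the GNA siRNAs against Hao1, more of the called P450 genes were higher than lower. With D2, 4 of 41 P450 genes rose at 10 nM and 8 of 40 at 50 nM, none fell, and 1.17% and 3.08% of all genes rose and 1.09% and 2.96% fell. At an unadjusted p under 0.05, 1 gene was lower with D2 at each dose, and DESeq2 called 0 lower. Of the 4 genes at 10 nM 1 was Cyp2a12, and over the 37 genes tested throughout 3 rose (8.11%, against 1.18%). The 8 genes of D2 at 50 nM came to 3 when D2 replicate 3 was left out. With D3, 9 of 40 rose and 3 fell at 10 nM, against 8.54% and 8.90% of all genes, and 10 rose and 4 fell at 50 nM, against 13.5% and 14.8%. The 10 include Cyp7b1, and over the 37 genes tested throughout 9 rose and 4 fell with D3 at 50 nM (24.3% and 10.8%, against 13.5% and 15.1%). Without the D3 library that stood apart, 10 P450 genes were called at 10 nM in place of 12.

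Among the GNA siRNAs against Ttr, more of the called P450 genes were higher with D5 and more were lower with D6. With D5, 6 of 41 P450 genes rose and 1 fell at 10 nM, against 4.58% and 3.54% of all genes, and 4 of 38 rose and 0 fell at 50 nM, against 4.58% and 1.97%. At 50 nM no gene was lower with D5 at an unadjusted p under 0.05 or by DESeq2. Without Cyp2a12, 5 of the 37 genes tested throughout rose with D5 at 10 nM (13.5%, against 4.60%). The D5 counts were small and rested on single libraries. They came to 4 at 10 nM without D5 replicate 2 or 3 or mock replicate 7, and to 2 at 50 nM without D5 replicate 2, 3 or 4 or mock replicate 1 or 4. With D6, 4 of 40 rose and 7 fell at 10 nM, against 11.9% and 13.9% of all genes, and 3 of 41 rose and 12 fell at 50 nM, against 15.0% and 16.5%. One of the genes counted higher at 50 nM was Cyp2a12, and over the 37 genes tested throughout 2 rose and 12 fell.

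The low doses gave few calls. At 0.1 nM no P450 gene was called with any of the 6 siRNAs, where 0.320%, 0.00885%, 0.00886%, 0.00886%, 0% and 0.0532% of all genes were called with D1 to D6. At an unadjusted p under 0.05 there were 7, 4, 5, 4, 7 and 10 P450 genes, and DESeq2 called 0 in each. At 1 nM the called genes were Cyp2c70 with D1, Cyp2c70 and Cyp3a13 with D4, and Cyp2b10 and Cyp3a13 with D6, where 0.632%, 2.07% and 2.13% of all genes were called. With D2, D3 and D5 at 1 nM there was no call by edgeR or DESeq2, with 2, 6 and 7 P450 genes at an unadjusted p under 0.05, and 0.00886%, 0.407% and 0.0444% of all genes were called.

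**Figure D2:**
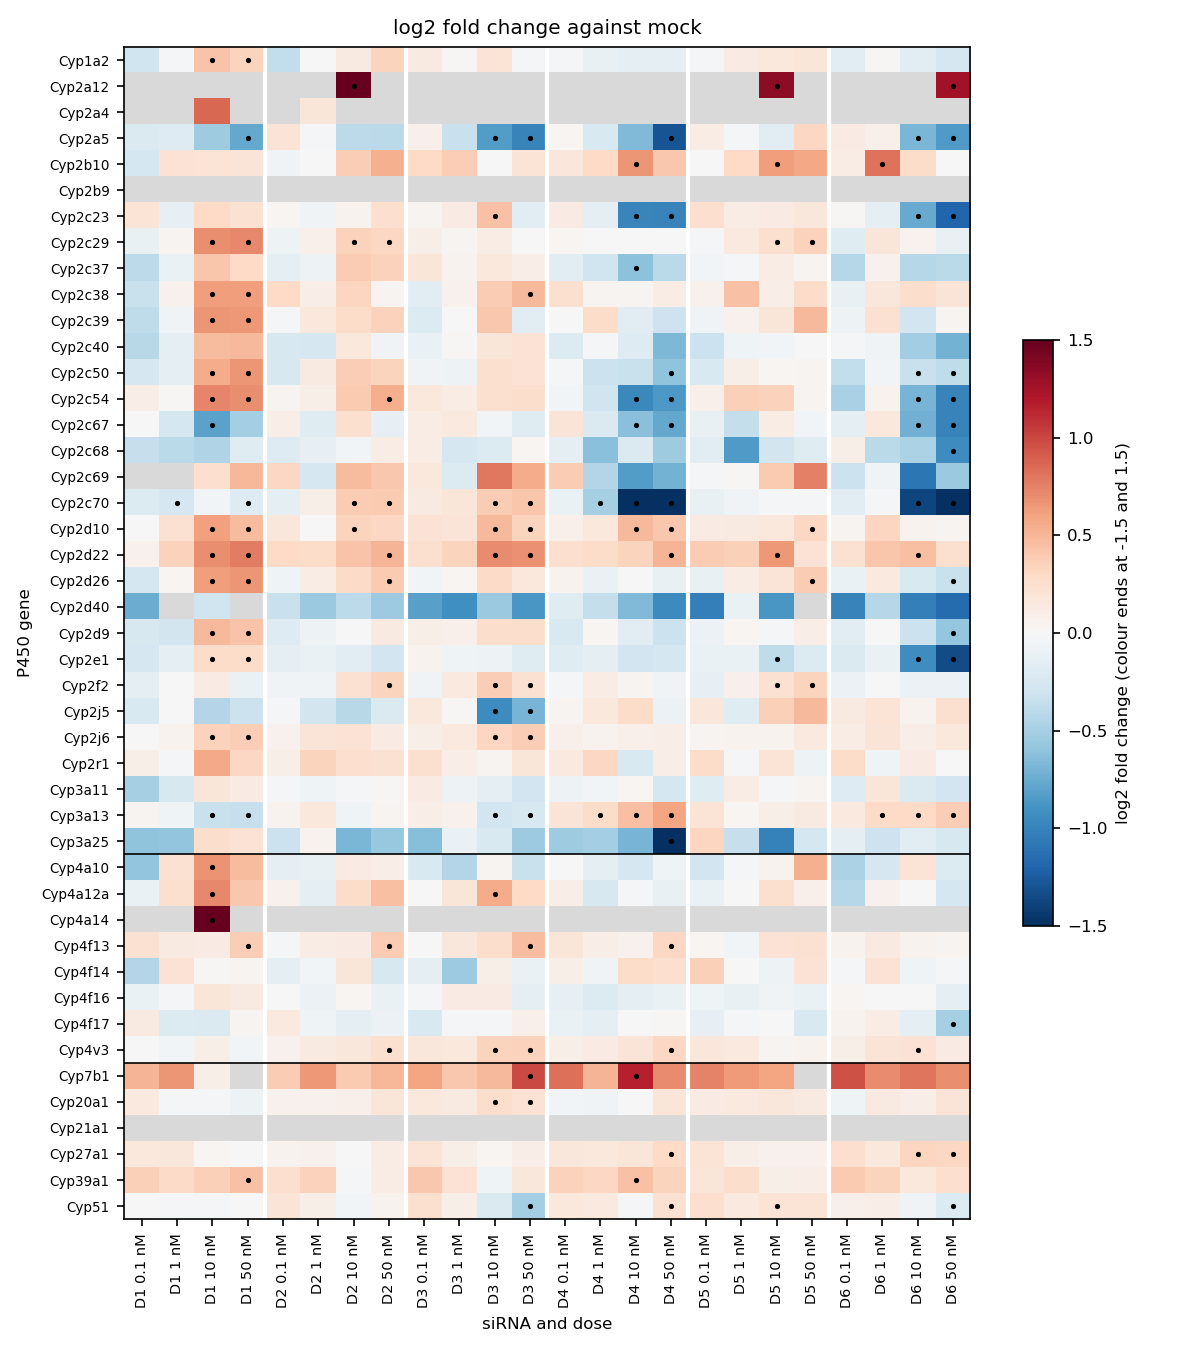
Log2 fold change against mock of the P450 genes (vertical axis, by family) in the 24 siRNA and dose groups (horizontal axis), with dots where edgeR's adjusted p was under 0.05 and grey where the gene was not tested. Calls lie at 10 and 50 nM with few exceptions, and Cyp2c70 ranges from −1.84 with D4 to 0.42 with D3.

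**Figure D3:**
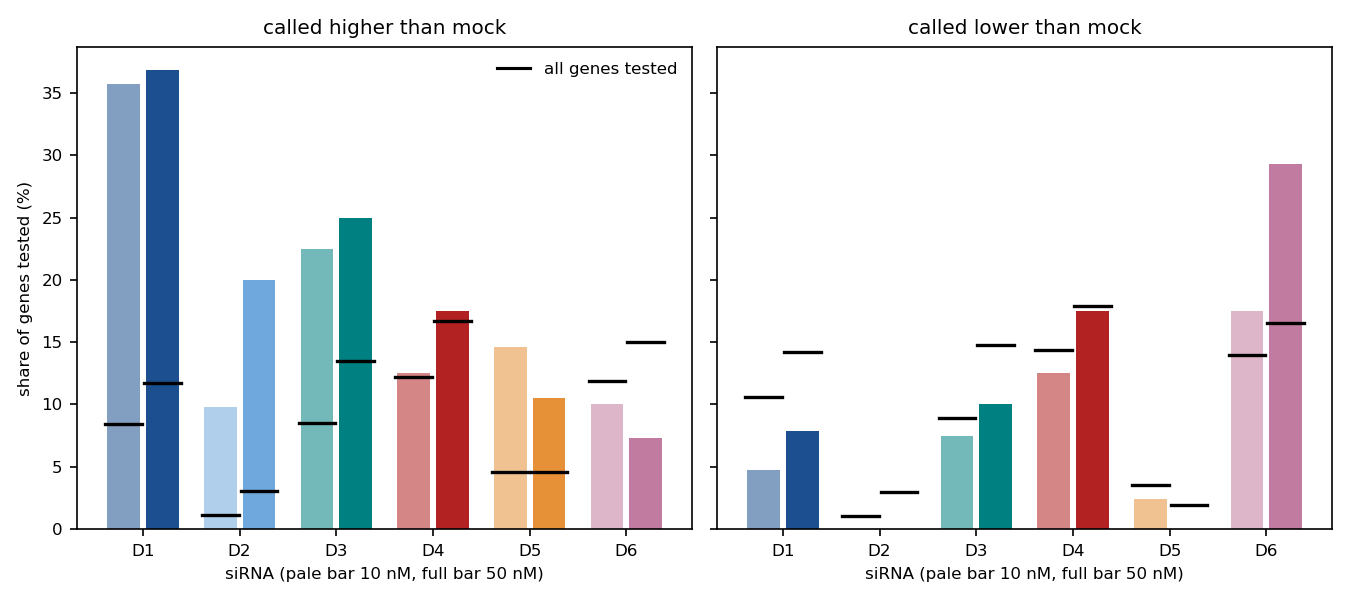
Percent of the P450 genes tested (bars) called higher (left) and lower (right) than mock with each siRNA, pale at 10 nM and full at 50 nM, and of all genes tested (black lines), Cyp2a12, Cyp4a14 and Cyp7b1 included where they were tested. For D1 the bars on the left stand well above the lines at 8.43% and 11.7%, and for D6 at 50 nM the bar on the right stands above its line at 16.5%.

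The 12 Cyp2c genes lie on chromosome 19, Cyp2c23 apart from the others. With D1 5 of 12 rose and 1 fell at 10 nM and likewise at 50 nM, while with D4 none rose and 5 fell at either dose, and with D6 none rose and 5 fell at 10 nM and 6 at 50 nM. Of all genes, 8.43% and 11.7% rose with D1, 14.4% and 17.9% fell with D4 and 13.9% and 16.5% fell with D6 at these doses. At an unadjusted p under 0.05 no Cyp2c gene was higher with D4 or D6 and 7 or 8 were lower, and DESeq2 called 0 higher and 3 to 6 lower. With D5 1 of 12, Cyp2c29, rose at each dose, against 4.58% of all genes. The median log2 fold change over the 12 genes at 50 nM was 0.49 with D1, 0.32 with D2, 0.16 with D3, −0.64 with D4, 0.04 with D5 and −0.63 with D6.

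Cyp2c70 (ENSMUSG00000060613, GRCm39 chr19:40141797-40175777, minus strand) had the largest fall of the P450 genes called at 10 nM with D4 and with D6. The mock libraries lay between 133 and 173 CPM with a median of 155. At 50 nM the 4 libraries of D4 lay at 40.8, 46.6, 41.4 and 42.3 CPM, and those of D6 at 53.8, 61.0, 41.2 and 51.7 CPM. Both groups lay wholly below mock and overlapped each other. The libraries of D5 lay at 137, 157, 143 and 168 CPM, within the mock range. Against mock, the log2 fold change at 50 nM was −1.84 with D4 (SE 0.07, adjusted p = 3.034e-22, edgeR), −1.56 with D6 (SE 0.08, adjusted p = 9.804e-15) and −0.02 with D5 (adjusted p = 0.927). With D4 the fall was −0.50 at 1 nM and −1.53 at 10 nM, with all 4 libraries below mock at each of the 3 doses, and with D6 it was −0.03 at 1 nM (adjusted p = 0.891) and −1.38 at 10 nM.

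With the Hao1 siRNAs Cyp2c70 moved in the other direction or little. The libraries of D2 at 50 nM lay at 201, 195, 232 and 172 CPM and those of D3 at 196, 216, 201 and 203 CPM. D3 lay wholly above mock and D2 overlapped it in 1 library. The log2 fold change at 50 nM was 0.39 with D2 (adjusted p = 0.0003987, edgeR) and 0.42 with D3 (adjusted p = 3.06e-07). The libraries of D1 lay at 145, 113, 143 and 136 CPM, overlapping mock, and the fold change of −0.20 (adjusted p = 0.0348) was not called without D1 replicate 2 or 4 or mock replicate 1, 2, 5 or 6 (adjusted p 0.0514 to 0.224). The call with D1 at 1 nM (−0.25, adjusted p = 0.0396) was lost without any of 8 of the 12 libraries, D1 replicates 2, 3 and 4 and mock replicates 1, 2, 5, 6 and 7 (adjusted p 0.0550 to 0.251).

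Cyp2c29 (chr19:39257849-39319157, plus strand) rose with D1. The mock libraries lay between 115 and 146 CPM with a median of 134, and those of D1 at 50 nM at 218, 212, 228 and 212 CPM. The libraries of D2 at 50 nM lay at 156, 169.7, 158 and 168 CPM and those of D5 at 149, 160, 173 and 189 CPM. All 3 groups lay wholly above mock. The log2 fold change at 50 nM was 0.72 with D1 (SE 0.06, adjusted p = 6.293e-12), 0.31 with D2 (adjusted p = 0.00125) and 0.35 with D5 (adjusted p = 0.000793), and 0.00, −0.01 and −0.11 with D3, D4 and D6, which did not pass the test. At 10 nM it was 0.70 with D1, 0.35 with D2 and 0.24 with D5, the last lost without D5 replicate 3 (0.16, adjusted p = 0.188).

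Cyp2c54 (chr19:40025117-40062282, minus strand), at a lower level, rose with D1 and fell with D4 and D6. The mock libraries lay between 7.56 and 13.6 CPM with a median of 11.2, and those of D1 at 50 nM at 18.9, 17.7, 16.9 and 17.4 CPM. The libraries of D4 at 50 nM lay at 7.90, 5.73, 7.69 and 2.40 CPM and those of D6 at 5.20, 4.62, 5.83 and 5.99 CPM. D1 lay wholly above and D6 wholly below mock, and D4 overlapped it in 2 libraries. Against mock it changed by 0.70 with D1, −0.86 with D4 and −1.004 with D6 on the log2 scale at 50 nM, and by 0.73, −0.97 and −0.70 at 10 nM. With D2 at 50 nM it was 0.54 (adjusted p = 0.0203), lost without D2 replicate 2 or 3 (adjusted p 0.106 to 0.114).

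Cyp2c23 (chr19:43993451-44017653, minus strand), an arachidonic acid epoxygenase, fell with D4 and D6. Its mock libraries lay between 6.98 and 11.9 CPM with a median of 10.35, those of D4 at 50 nM at 6.77, 6.13, 3.94 and 2.996 CPM, and those of D6 at 4.82, 2.59, 3.82 and 6.37 CPM. Both groups lay wholly below mock. On the log2 scale the change was −0.996 with D4 at 10 nM and −1.01 at 50 nM, and −0.75 and −1.18 with D6. A rise with D3 at 10 nM (0.44, adjusted p = 0.041) was lost without D3 replicate 2 or 3 or mock replicate 1, 3 or 4 (adjusted p 0.0564 to 0.235).

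The other Cyp2c genes followed these in part. Cyp2c50 rose with D1 (0.56 and 0.66 at 10 and 50 nM) and fell with D4 at 50 nM (−0.60) and with D6 (−0.34 and −0.38). Cyp2c38 and Cyp2c39 rose with D1 by 0.63 to 0.66 on the log2 scale, and Cyp2c38 with D3 at 50 nM by 0.48. Cyp2c67 fell with D1 at 10 nM (−0.80), D4 (−0.62 and −0.76) and D6 (−0.72 and −1.01), with libraries that overlapped mock, Cyp2c37 fell with D4 at 10 nM (−0.61) and Cyp2c68 with D6 at 50 nM (−0.94).

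**Figure D4:**
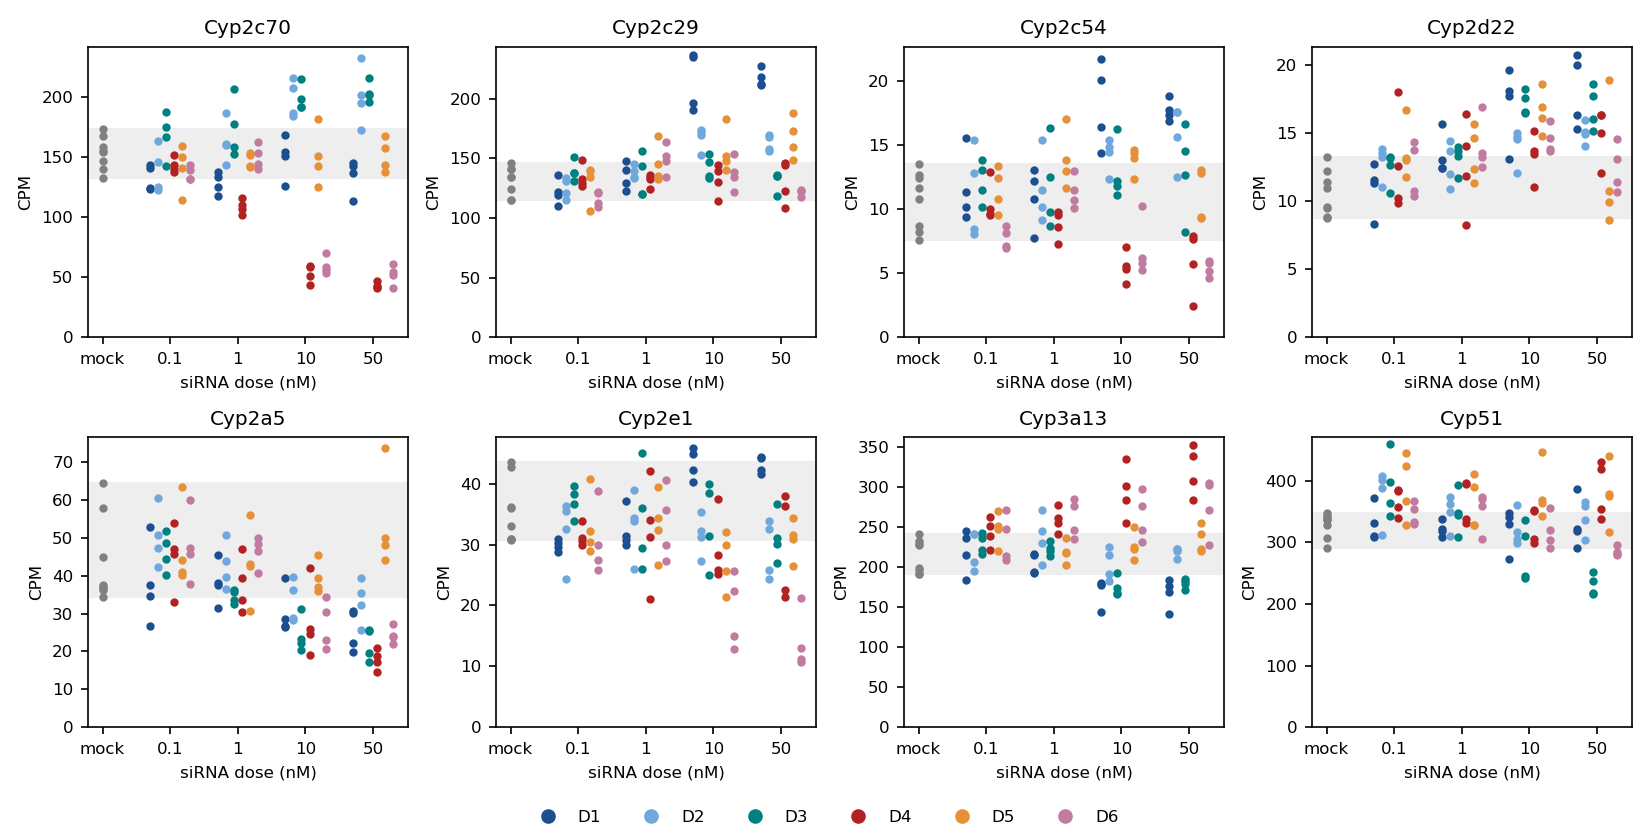
CPM of Cyp2c70, Cyp2c29, Cyp2c54, Cyp2d22, Cyp2a5, Cyp2e1, Cyp3a13 and Cyp51 by dose (0.1, 1, 10 and 50 nM) for the 6 siRNAs; points are libraries, the mock libraries stand at the left, and the grey band is their range. With D4 and D6 Cyp2c70 lies below the band at 10 and 50 nM, and with D5 at 50 nM within it.

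The guide strand of an siRNA can also pair, like a microRNA, through its seed with 3′-UTRs of other transcripts, so the P450 genes were searched for such matches. The motifs were ATCGACA and TCGACAA for D1 to D3 and CTCTATA and TCTATAA for D4 to D6, that is, the complement of guide positions 2 to 8, or of all but the last of these followed by A, read in the mRNA strand of the longest annotated 3′-UTR. A match was present in 2 of 45 P450 genes for the Hao1 guide, where 2.853% of 11075 expressed protein-coding genes have one, and in 7 of 45 for the Ttr guide, where 20.144% have one. The 9 places are shown so that each gene's values can be read beside its letters. Capitals mark the match, and the coordinates are GRCm39.
Cyp7b1, for D1 to D3: atttagaaattATCGACAggaagcctata
Cyp2c67, for D1 to D3: atccaaaggacATCGACAtgacccccaaa
Cyp2c70, for D4 to D6: gtatatctatgTCTATAAttaacatatag
Cyp2c23, for D4 to D6: ttctcttttttTCTATAAacagtctattt
Cyp2c54, for D4 to D6: atttaaatcttTCTATAAatgtctatcat
Cyp7b1, for D4 to D6: ctgtaggtggaCTCTATAAgttccctctcc
Cyp4f14, for D4 to D6: aagccccaagcCTCTATAccatgtgcaca
Cyp2j6, for D4 to D6: aaatcctctgtCTCTATAtgatttgattg
Cyp2b9, for D4 to D6: gtgctagtggaCTCTATAtaaggtctgat

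The windows lie at chr3:18126711-18126739 (minus strand) for Cyp7b1 and chr19:39597581-39597609 (minus) for Cyp2c67 with the Hao1 guide. Both of these are coding sequence in the canonical transcript of the gene. For the Ttr guide they lie at chr19:40168774-40168802 (minus) for Cyp2c70, chr19:43993814-43993842 (minus) for Cyp2c23, chr19:40025139-40025167 (minus) for Cyp2c54, chr3:18122063-18122092 (minus) for Cyp7b1, chr17:33120612-33120640 (minus) for Cyp4f14, chr4:96404801-96404829 (minus) for Cyp2j6 and chr7:25909995-25910023 (plus) for Cyp2b9. The Cyp2c70 window lies in the 3′-UTR of another annotated transcript and outside the canonical one, and the other 6 lie in the canonical 3′-UTR.

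Genes with a match for the Ttr guide did not move alike. With D4 at 50 nM the log2 fold change was −1.84 for Cyp2c70, −1.01 for Cyp2c23 and −0.86 for Cyp2c54, and 0.10 for Cyp2j6 (adjusted p = 0.294) and 0.25 for Cyp4f14 (adjusted p = 0.528). Cyp7b1 stood at 0.70 (adjusted p = 0.113), but whether it passed the filter on low counts turned on the treated libraries. Its direction follows in part from the filter and cannot be read beside the match. Cyp2b9 was too low to be tested. Cyp2c67 and Cyp2c50, which fell with D4 at 50 nM, have no match for this guide in the window searched. A match is a run of letters and not evidence of pairing.

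Of the 5 Cyp2d genes on chromosome 15, 4 rose with D1 at 10 nM and the 4 tested rose at 50 nM, against 8.43% and 11.7% of all genes. With D6 at 50 nM, 2 fell, Cyp2d9 by 0.58 on the log2 scale and Cyp2d26 by 0.34, the latter lost under 7 of 12 omissions of a library (D6 replicates 1, 2 and 4 and mock replicates 2, 5, 7 and 8, adjusted p 0.0528 to 0.123). Cyp2d22 (chr15:82254727-82264597, minus strand), the nearest mouse relative of the human drug oxidase CYP2D6, rose with D1 and D3. In mock it lay between 8.73 and 13.3 CPM with a median of 10.3, those of D1 at 50 nM at 20.1, 20.7, 16.4 and 15.3 CPM, and those of D3 at 17.7, 18.6, 16.1 and 15.2 CPM. Both groups lay wholly above mock. With D1 the log2 fold change was 0.77 (adjusted p = 4.3e-05) and 0.69 with D3 at 50 nM (adjusted p = 0.0001124), with 0.70 and 0.71 at 10 nM. It was also called higher with D4 at 50 nM (0.51) and D5 at 10 nM (0.66), among other comparisons.

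Cyp2d10 rose with D1, D3 and D4. In mock it lay between 23.1 and 29.0 CPM with a median of 26.9, those of D1 at 50 nM at 37.9, 40.3, 36.5 and 35.8 CPM, and those of D4 at 40.8, 37.2, 29.0 and 35.8 CPM. The D1 libraries lay wholly above mock and the lowest D4 library overlapped it. At 50 nM the log2 fold change was 0.48 with D1 and 0.41 with D4. With D3 it was 0.48 at 10 nM and 0.34 at 50 nM, the latter lost without D3 replicate 1 (adjusted p = 0.0544, edgeR). Cyp2d10 was also called higher with D2 at 10 nM (0.34), lost under 5 of 12 omissions of a library. The same held with D5 at 50 nM (0.31), lost under 8 of 12. Cyp2d26 lay between 15.0 and 24.1 CPM in mock with a median of 19.1 and at 29.7, 31.1, 38.7 and 25.1 CPM in D1 at 50 nM, a log2 fold change of 0.66 (adjusted p = 6.6e-05), with no overlap. Cyp2d9 rose with D1 by 0.48 and 0.42 at 10 and 50 nM, and Cyp2d40 was called in none of the 21 comparisons that tested it, with log2 fold changes from −1.15 to −0.09.

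Cyp2a5 (chr7:26534730-26542973, plus strand), the coumarin hydroxylase, was called lower in 6 comparisons and higher in none by edgeR. Its mock libraries lay between 34.3 and 64.4 CPM with a median of 37.3. At 50 nM the libraries of D3 lay at 25.6, 25.3, 17.1 and 19.5 CPM, those of D4 at 20.9, 14.4, 18.7 and 17.2 CPM, and those of D6 at 27.4, 24.0, 21.9 and 23.8 CPM. All 3 groups lay wholly below mock, and the mock group itself was spread widely. The libraries of D5 at 50 nM lay at 48.2, 44.2, 73.7 and 50.1 CPM, overlapping mock. The log2 fold change at 50 nM was −1.001 with D3 (adjusted p = 0.0051), −1.29 with D4 (adjusted p = 0.0003675) and −0.85 with D6 (adjusted p = 0.0035). Calls with D1 at 50 nM (−0.77), D3 at 10 nM (−0.84) and D6 at 10 nM (−0.69) were lost without D1 replicate 3 or 4 (adjusted p 0.0685 to 0.0807), D3 replicate 2, 3 or 4 (0.0546 to 0.0619) and D6 replicate 1, 3 or 4 or mock replicate 1 (0.0611 to 0.127).

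Cyp2a12, a steroid and bile acid hydroxylase, passed the filter in 3 comparisons only, each with a call higher, so that its calls with D2 and D5 at 10 nM and D6 at 50 nM, counted above, are left out of the counts over the 37 genes. Its mock libraries lay between 0.295 and 1.75 CPM with a median of 1.20, those of D2 at 10 nM at 3.75, 3.62, 2.57 and 3.59 CPM, and those of D6 at 50 nM at 2.31, 2.77, 2.21 and 3.37 CPM. Both groups lay wholly above mock.

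Cyp2e1 (chr7:140343652-140355167, plus strand), which oxidises ethanol and paracetamol, fell with D6. Its mock libraries lay between 30.8 and 43.6 CPM with a median of 34.6, those of D6 at 50 nM at 11.2, 10.7, 13.1 and 21.2 CPM, and those of D4 at 36.3, 21.3, 38.0 and 22.6 CPM. D6 lay wholly below mock, and D4 was split, with 2 libraries inside the mock range and 2 below it. With D6 the log2 fold change was −0.93 at 10 nM and −1.34 at 50 nM (SE 0.15, adjusted p = 2.923e-07). With D5 at 10 nM it was −0.38, lost without D5 replicate 1 or 2 or mock replicate 7 (adjusted p 0.0603 to 0.174). The libraries of D1 at 50 nM lay at 42.3, 41.7, 44.2 and 44.3 CPM, 2 inside the mock range and 2 just above it. Its fold change of 0.27 (adjusted p = 0.03203), with 0.28 at 10 nM, was lost without any of 7 of the 12 libraries, which were D1 replicates 1, 3 and 4 at 50 nM or 1, 2 and 4 at 10 nM, and mock replicates 2, 3, 4 and 8 (adjusted p 0.0525 to 0.112).

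Among the rest of family 2, Cyp2f2, which activates naphthalene, lay between 57.4 and 73.8 CPM in mock with a median of 65.6 and at 81.6, 80.0, 79.9 and 86.1 CPM in D2 at 50 nM. These D2 libraries lay wholly above mock (log2 fold change 0.33, adjusted p = 0.001746), and Cyp2f2 also rose with D3 (0.36 and 0.23) and with D5 at 50 nM (0.33). The epoxygenase Cyp2j6 rose with D1 (0.34 and 0.37) and D3 (0.32 and 0.37), without overlap at either dose, and Cyp2j5 fell with D3 (−0.95 and −0.69). Cyp2b10, the standard target of CAR, was called higher with D4 at 10 nM (0.67, lost without D4 replicate 3, adjusted p = 0.173), D5 at 10 nM (0.63) and D6 at 1 nM (0.81), the last 2 each lost without any of 7 of 12 libraries, of which D5 replicates 3 and 4, D6 replicates 1 and 3 and mock replicates 1, 2, 3, 4 and 7 (adjusted p 0.0544 to 0.328).

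Cyp1a2, the caffeine oxidase and the only family 1 member, had mock libraries between 17.9 and 31.8 CPM with a median of 21.6 and lay at 25.6, 27.1, 29.7 and 32.4 CPM in D2 at 50 nM, overlapping mock in 3 libraries. It was called with D1 at 10 nM (0.43), lost without D1 replicate 2 or 4 (adjusted p 0.0558 to 0.0672), and at 50 nM (0.33), lost without any of the 4 D1 libraries or mock replicate 1, 4, 6 or 8 (adjusted p 0.0501 to 0.139).

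In family 3, Cyp3a13 (chr5:137891193-137919882, minus strand) fell with D1 and D3 and rose with D4 and D6. Its mock libraries lay between 191 and 241 CPM with a median of 213, those of D1 at 50 nM at 141, 184, 168 and 176 CPM, and those of D3 at 171, 184, 182 and 179 CPM. The libraries of D4 at 50 nM lay at 284, 339, 307 and 352 CPM and those of D6 at 271, 303, 304 and 228 CPM. D1 and D3 lay wholly below mock, D4 wholly above it, and D6 above it in 3 of 4 libraries. The log2 fold change at 50 nM was −0.35 with D1 (adjusted p = 0.000601), −0.25 with D3 (adjusted p = 0.0022), 0.59 with D4 (adjusted p = 5.71e-08) and 0.37 with D6 (adjusted p = 0.000915). At 1 nM it was 0.28 with D4 and 0.29 with D6, lost without D4 replicate 2 (adjusted p = 0.0597) and without D6 replicate 2 or 4 (adjusted p 0.0941 to 0.112).

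Cyp3a25 lay between 1.35 and 3.53 CPM in mock with a median of 2.31 and at 1.316, 0.198, 0.197 and 0.400 CPM in D4 at 50 nM, wholly below mock, a fitted log2 fold change of −1.99 (adjusted p = 0.0006196) that rests on few counts. Cyp3a11 was called in no comparison with mock by edgeR.

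Of the 8 family 4 genes, 0 to 3 were called in a comparison. At 50 nM 1 of 7 tested was called with D1 and with D6, 2 of 7 with D2, D3 and D4 and 0 of 7 with D5, where between 3.08% (D2) and 16.7% (D4) of all genes rose and between 1.97% (D5) and 17.9% (D4) fell. Cyp4v3, the relative of the human fatty acid hydroxylase CYP4V2, lay between 77.5 and 96.7 CPM in mock with a median of 88.3. Its libraries lay at 101, 125, 115 and 105 CPM in D3 and at 106, 107, 115 and 109.5 CPM in D4 at 50 nM. Both groups lay wholly above mock, with log2 fold changes of 0.35 and 0.31. It was also called with D2 at 50 nM (0.24), lost without D2 replicate 2 or 3 (adjusted p 0.0620 to 0.0926), and with D6 at 10 nM (0.22), lost without D6 replicate 1 (adjusted p = 0.0607). Cyp4f13 rose at 50 nM with D1, D2, D3 and D4 by 0.31 to 0.46, with overlap, and Cyp4f17 fell with D6 at 50 nM (−0.50).

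The Cyp4a genes, fatty acid hydroxylases driven by the receptor PPARα, were higher with D1 at 10 nM in the 2 members tested throughout, by 0.67 for Cyp4a10 and 0.72 for Cyp4a12a. Cyp4a14, tested in this comparison only because its D1 libraries were high, had a fitted value of 1.55, which adds no support. Cyp4a12a was also called with D3 at 10 nM (0.56). With D1 at 50 nM, 0 of the 2 Cyp4a genes tested were called, with a median log2 fold change of 0.44. Cyp4a14 lay between 0.208 and 2.14 CPM in mock with a median of 1.15 and at 0.399, 4.69, 2.90 and 5.06 CPM in D1 at 10 nM, so that 1 of the 4 libraries lay in the mock range. Its call was lost without D1 replicate 2 or 4 (adjusted p 0.0709 to 0.0742), and that of Cyp4a10 without D1 replicate 2, 3 or 4 (adjusted p 0.0576 to 0.116).

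Among the sterol genes, Cyp51 (chr5:4123416-4154751, minus strand) fell with D3 and, by less, with D6, and rose with D4. In mock it lay between 290.5 and 348 CPM with a median of 338. At 50 nM the libraries of D3 lay at 253, 237, 218 and 216 CPM, those of D4 at 419, 339, 431 and 354 CPM, and those of D6 at 285, 279.6, 296 and 281 CPM. D3 lay wholly below mock, while D4 and D6 overlapped it, in 1 library each. The log2 fold change was −0.51 with D3 (SE 0.05, adjusted p = 1.2e-09), 0.23 with D4 (adjusted p = 0.0022) and −0.21 with D6 (adjusted p = 0.0022). A rise with D5 at 10 nM (0.21) was lost without D5 replicate 2 (0.12, adjusted p = 0.253).

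Cyp27a1, the mitochondrial hydroxylase of the acidic bile acid route, lay between 30.5 and 46.0 CPM in mock with a median of 38.2 and at 48.7, 48.4, 46.3 and 46.9 CPM in D4 at 50 nM. D4 lay just above the highest mock library (log2 fold change 0.30, adjusted p = 0.0058). With D6 it rose by 0.33 at 10 nM and 0.31 at 50 nM on the log2 scale, the latter lost without D6 replicate 2 (0.25, adjusted p = 0.062).

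Cyp7b1, the oxysterol hydroxylase of the same route, lay between 0.295 and 2.92 CPM in mock with a median of 1.56. Its libraries lay at 2.96, 3.65, 3.42 and 3.70 CPM in D3 at 50 nM and at 4.10, 2.78, 4.98 and 3.82 CPM in D4 at 10 nM. The log2 fold changes were 0.99 and 1.17, D3 lay just above mock, and D4 overlapped it in 1 library. In all 22 comparisons that tested it the fold change of Cyp7b1 lay above 0, from 0.08 to 1.17, and these share the mock libraries. With the same mock libraries throughout, whether it passed the filter on low counts turned on the treated libraries. The direction therefore follows in part from the filter. Cyp39a1, another oxysterol hydroxylase, was called with D1 at 50 nM and D4 at 10 nM (0.44 each), lost without D1 replicate 1 or 4 (adjusted p 0.0803 to 0.112) or D4 replicate 2 or 4 (adjusted p 0.0657 to 0.0933). Cyp20a1, of unknown substrate, was called with D3 (0.26 and 0.21), lost at 10 nM without the D3 library that stood apart (0.20, adjusted p = 0.107) and at 50 nM without D3 replicate 2, 3 or 4 or mock replicate 4, 5 or 6 (adjusted p 0.0534 to 0.127).

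siRNAs of the same sequence were then compared directly at matched doses, in 12 comparisons of 4 against 4 libraries without the mock group. For the Hao1 siRNAs at 10 nM, 6 of 41 P450 genes differed between D1 and D2, 2 of 43 between D1 and D3 and 1 of 39 between D3 and D2, against 10.7%, 11.3% and 4.05% of all genes. At 50 nM these counts were 7 of 41, 14 of 40 and 6 of 39, against 14.0%, 23.8% and 9.81%. The count for D1 against D3 at 10 nM rose to 6 without D1 replicate 4 and to 4 without D3 replicate 3. The gene of D3 against D2 at 10 nM, Cyp2c29, was not called without D2 replicate 1, 2 or 3 or D3 replicate 4, and 2 genes were called without D2 replicate 4 or D3 replicate 3.

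For the Ttr siRNAs at 10 nM, 6 of 38 P450 genes differed between D4 and D5, 0 of 38 between D4 and D6 and 10 of 38 between D6 and D5, against 17.2%, 1.92% and 17.3% of all genes. At 50 nM these counts were 12, 3 and 14 of 38, against 22.9%, 4.18% and 20.4%. Between D4 and D6 at 10 nM, 2 P450 genes had an unadjusted p under 0.05 and DESeq2 called 0, while 1 was called without D4 replicate 4 or D6 replicate 2. The 3 genes of D4 against D6 at 50 nM came to 1 without D6 replicate 1 or 2. The share of P450 genes called lay above that of all genes in each of the 6 comparisons at 50 nM, and at 10 nM in 2 of 6, D1 against D2 and D6 against D5. These comparisons share groups and are not independent. For D4 against D6 at 50 nM the count was 1 to 2 whichever library was left out, and 1 of 38 lies under the 4.18% of all genes.

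Cyp2c70 separated the GNA-G siRNA from both other Ttr siRNAs. At 50 nM its log2 difference was −1.82 between D4 and D5 (95% interval −1.99 to −1.66) and −1.54 between D6 and D5 (−1.73 to −1.34), with no overlap of libraries. Between D4 and D6 it was −0.28 (−0.48 to −0.07, adjusted p = 0.133), a difference that did not pass the test and whose interval leaves room for a fall up to 0.48. Between D1 and D2 it was −0.58 (−0.75 to −0.40), between D1 and D3 −0.60 (−0.74 to −0.46), and between D3 and D2 0.03 (−0.10 to 0.17), an interval that reaches at most 0.17 from 0 for GNA-isoC against GNA-C.

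Cyp2c29 differed along the Hao1 siRNAs at 50 nM, by 0.42 between D1 and D2 (0.29 to 0.55), 0.73 between D1 and D3 (0.61 to 0.86) and −0.31 between D3 and D2 (−0.43 to −0.18). At 50 nM Cyp51 was lower with each isonucleotide siRNA than with the other siRNAs of its sequence, with a difference of −0.56 between D3 and D2 (−0.68 to −0.44), 0.52 between D1 and D3 (0.37 to 0.67), 0.44 between D4 and D6 (0.30 to 0.58) and −0.40 between D6 and D5 (−0.56 to −0.25). At 10 nM only D6 against D5 was called (−0.26, adjusted p = 0.009519), with −0.18 between D3 and D2, 0.19 between D1 and D3 and 0.04 between D4 and D6. Cyp2a5 was lower with D4 than with D5 by 1.61 on the log2 scale (−1.94 to −1.28) and with D6 than with D5 by 1.16 (−1.45 to −0.86). For Cyp2e1 the difference was −1.13 between D6 and D5 (−1.49 to −0.78) and 1.08 between D4 and D6 (0.43 to 1.73), the latter not called (adjusted p = 0.0866) although the libraries did not overlap. Cyp3a13 was lower with D1 than with D2 (−0.38, −0.53 to −0.24) and higher with D4 than with D5 (0.44, 0.30 to 0.58).

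**Figure D5:**
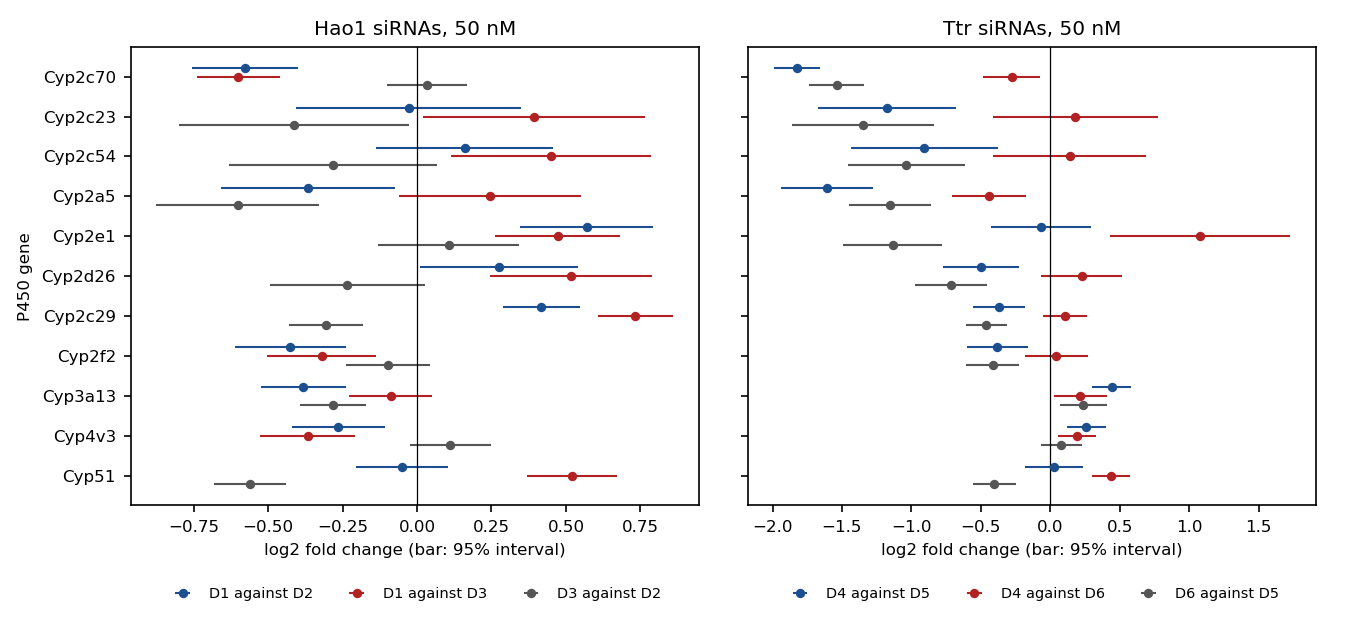
Log2 difference between siRNAs of the same target at 50 nM for 11 P450 genes, with 95% intervals from edgeR's fit, the Hao1 siRNAs left and the Ttr siRNAs right on their own scales. Cyp2c70 is lowest in D4 against D5 at −1.82 and D6 against D5 at −1.54, while its interval in D3 against D2 spans 0.

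Within an siRNA, 50 nM was compared with 0.1 nM, again without the mock libraries. The called P450 genes were 16 of 37 with D1, 6 of 39 with D2, 11 of 39 with D3, 9 of 37 with D4, 2 of 38 with D5 and 8 of 39 with D6, against 19.4%, 1.85%, 20.3%, 25.7%, 1.94% and 24.4% of all genes. With D1, 15 of the 16 were higher at 50 nM, among them Cyp2d26 (0.92) and Cyp2c29 (0.83), and with D4 and D6 Cyp2c70 was lower by 1.75 and 1.39 on the log2 scale. With D3, Cyp2a5 (−1.09) and Cyp51 (−0.76) were lower. Cyp3a11, without a call against mock, was higher at 50 nM with D1 (0.62) and lower with D3 (−0.41). With D5 the 2 genes were Cyp2c29 (0.35) and Cyp2f2 (0.44). That count came to 1 without D5 replicate 2 at 0.1 nM or replicate 2 or 4 at 50 nM, and to 0 without replicate 4 at 0.1 nM or replicate 3 at 50 nM.

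Genes that supply or set P450 enzymes were read from lists, against mock at 10 and 50 nM. The counts in these lists stand against shares of all genes at 50 nM of 11.7% higher and 14.2% lower with D1, 3.08% and 2.96% with D2, 13.5% and 14.8% with D3, 16.7% and 17.9% with D4, 4.58% and 1.97% with D5, and 15.0% and 16.5% with D6. Of 8 redox partners 7 were tested, and 0 to 3 rose and 0 to 3 fell in a comparison. Por, the reductase that feeds microsomal P450 enzymes, rose with D1 (0.21 and 0.25), D3 (0.34 and 0.23), and at 50 nM with D2 (0.22) and D5 (0.22), while Fdx1, the electron carrier of mitochondrial P450 enzymes, fell with D1 (−0.25 and −0.34), D4 (−0.52 and −0.57) and D6 (−0.42 and −0.41). Of 8 heme synthesis genes, 3 rose with D4 at 50 nM, Alad (0.25), Cpox (0.30) and Ppox (0.43), and 2 fell with D1 at 50 nM, Alad (−0.25) and Uros (−0.56). With D6 at 50 nM Alas1 rose (0.21, adjusted p = 0.0148, edgeR), and with D2, D3 and D5 no heme gene was called.

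Of 14 receptors and factors, 11 or 12 were tested, and at 50 nM the counts higher and lower were 1 and 2 with D1, 1 and 1 with D2, 3 and 3 with D3, 2 and 4 with D4, 0 and 0 with D5, and 0 and 4 with D6. Hnf4a, the main hepatocyte factor, was called lower with D1 (−0.37 and −0.44) and in no other comparison at these doses, and Rxra, the shared partner of the nuclear receptors, fell at 50 nM with D1 (−0.49), D2 (−0.22), D3 (−0.30) and D6 (−0.22). Ppara rose with D1 (0.35), D2 (0.31) and D3 (0.41) and fell with D4 (−0.38) at 50 nM, and Nr1i2, the drug sensor PXR, rose with D4 (0.88 and 0.78). Arnt fell with D4 and D6 at both doses, and Cebpa with D6 at both. With D3 at 50 nM, Arnt (−0.23) and Cebpa (−0.38) were lower as well.

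Inflammation lowers many P450 transcripts in liver, so 10 acute phase genes and 14 interferon response genes, of which 13 were tested, were read beside them. At 50 nM, 3 acute phase genes rose and 1 fell with D1, 1 and 0 with D2, 6 and 2 with D3, 4 and 3 with D4, 0 and 1 with D5, and 2 and 3 with D6. Of all genes at that dose, 11.7% rose and 14.2% fell with D1, 3.08% and 2.96% with D2, and 13.5% and 14.8% with D3. With D4 16.7% rose and 17.9% fell, with D5 4.58% and 1.97%, and with D6 15.0% and 16.5%. Saa2 rose with D1 (0.45), D3 (0.29) and D4 (0.26), and Crp fell with D3 (−1.45), D4 (−1.06) and D6 (−0.61). Il1rn fell with D1 (−0.85), D3 (−0.71), D4 (−1.70), D5 (−0.89) and D6 (−1.37), and Hp with D4 (−0.68) and D6 (−0.35). Lcn2 rose with D1 (0.15), D2 (0.17) and D3 (0.34). Of the interferon genes, 1 rose and 4 fell with D4 and 0 rose and 2 fell with D6 at 50 nM, 6 fell with D6 at 10 nM, and 0 to 2 were called in each direction in the other comparisons at these doses. Of all genes, 13.9% fell with D6 at 10 nM. Rsad2 rose with D1, D2, D3 and D4 at 50 nM by 1.13 to 1.93. What part these genes have in the P450 values was not tested.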

How the data were processed

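Stranded total RNA libraries of primary mouse hepatocytes, collected 24 h after 6 siRNAs at 4 doses (4 libraries each) or mock treatment (8 libraries), were read on a NextSeq500. The authors filtered reads with fastq-mcf, used STAR on GRCm39 and took reads with a single alignment into gene counts by featureCounts 2.0.2, and the deposited counts are not normalized and come as 2 sequencing runs per library. The gene annotation the authors used is not given in the sources used here. Gene symbols were taken from the deposited DESeq2 1.32.0 tables. Those 24 tables also hold the authors' fold changes and p-values, which were not used, and of their columns only the pairing of gene ID and symbol served here.

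The counts of both runs were summed and 92 spike-ins were left out. Libraries held 3409963 to 6160626 counts. CPM is the count of a gene per 1000000 counts on genes. For levels of single genes and marker lists, the counts on genes of a library were first multiplied by its TMM factor over all libraries. The limit of 1 CPM for members and the sums of P450 genes used CPM without that factor. Coordinates, exon lengths and 3′-UTRs are from GENCODE vM39 on GRCm39, which lists 54749 of the 55416 genes. Comparisons used edgeR 4.0.16 in R 4.3.3 (TMM, filterByExpr, glmQLFit with robust estimation, glmQLFTest) on the whole table, the 2 groups compared only, with Benjamini-Hochberg adjustment over all genes tested. Intervals of 95% are from the fit's t distribution. On simulated counts, of genes changed by a log2 of 1 the test recovered 90.8% for D1 at 50 nM against mock (11140 genes), 91.8% for D4 against D5 at 50 nM (10955 genes) and 90.8% for D1 at 50 against 0.1 nM (10922 genes), and of those changed by 0.5 it recovered 75%, 60.6% and 71%. Sums and figures used Python 3.11.15, pandas 2.3.3 and matplotlib 3.10.9.

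The P450 genes, the lists (redox partners, heme synthesis, receptors and factors, acute phase, interferon response, cell type markers) and the tests were chosen with earlier results of these data known. A P450 gene was named with its values if it was among the 10 highest in mock per kilobase, among the 3 largest non-overlapping increases or decreases of any siRNA at 50 nM, on the textbook list, or among the 2 smallest adjusted p of a comparison between siRNAs or doses. Other Cyp genes, such as Cyp2c50, Cyp2c67, Cyp2c38, Cyp2c39, Cyp2c37, Cyp2c68, Cyp2d9, Cyp2j5, Cyp4a12a and Cyp4f13, were named after their values were seen. Results were recomputed without each library in turn, for either run by itself, with RLE scaling, without the filter on low counts, with the labels' replicate number as a block, with all groups fitted together, and by DESeq2 1.42.0 (betaPrior set). Counts over the genes tested in all comparisons with mock were added after the data were seen. Protein sequences were not used here.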

Additional observations from a re-analysis of the deposited data

Results flagged for a closer look

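Of 70 groups of values tested for a sample far from the others, 1 held one. It was the Cyp2a12 level of D2 at 10 nM replicate 3, at 2.57 CPM (2.573) against 3.59 to 3.75 CPM in the other 3 libraries of its group, a gap of 0.861 of the group's range, above Dixon's limit for 4 samples. Chance alone gives such a value in about 1 in 20 groups. All 4 libraries lay above the highest mock library at 1.75 CPM.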

How the results depend on the processing

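The counts of P450 genes called were recomputed under 672 alternatives, and 588 stayed within 1.5 times the reported count. RLE size factors kept all 42 comparisons within that range, DESeq2 38 of 42, no filter on low counts 35 of 42, all groups in one fit 20 of 24, run 1 alone 19 of 24 and run 2 alone 16 of 24. Of 110 values of named genes 67 were called under every alternative that gave a value, 43 lost the call under at least 1, and none changed sign. Without the filter, against mock 1 P450 gene was called with D1, D3 and D5 at 0.1 nM, and between siRNAs 4 for D1 against D3, 3 for D3 against D2 and 2 for D4 against D6 at 10 nM, and 5 for D4 against D6 at 50 nM. With DESeq2, 4 and 2 were called with D5 at 10 and 50 nM, 1 with D6 at 1 nM, and 6 for D6 against D5 at 10 nM. With all groups in one fit, 0 were called with D1 at 1 nM, 3 and 2 with D5 at 10 and 50 nM and 1 with D6 at 1 nM. With run 1 alone, 2 were called with D1 at 0.1 nM, 2 and 4 with D2 at 10 and 50 nM, and 2 and 2 with D5 at 10 and 50 nM. With run 2 alone, 0, 10 and 8 were called with D1 at 1, 10 and 50 nM, 2 and 3 with D2 at 10 and 50 nM, 6 with D4 at 10 nM, 3 with D5 at 10 nM and 1 with D6 at 1 nM. A single run holds fewer counts. The cause of the other shifts was not tested. Restricting the count to the 37 genes tested in all comparisons with mock, an alternative chosen after seeing the data, kept all 24 counts within 1.5 times.

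With the replicate block, 34 of 42 comparisons stayed within 1.5 times, and the count was 0 for D1 at 1 nM, 7 for D2 at 10 nM, 1 each for D3, D5 and D6 at 0.1 nM, 2 for D3 against D2 and for D4 against D6 at 10 nM, and 1 for D4 against D6 at 50 nM. The numbers did not pair the libraries, since correlations of same-numbered deviations ran from −0.224 to 0.166 and in 0 of 42 comparisons was every pair above 0.1.

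Leaving out single libraries, the counts ranged from 0 to 1 with D1 at 0.1 and 1 nM, D2 at 0.1 nM and D5 at 0.1 nM, from 3 to 9 with D2 at 50 nM, 1 to 2 with D4 at 1 nM, 4 to 7 and 2 to 4 with D5 at 10 and 50 nM, and 1 to 3 with D6 at 1 nM. D4 at 1 nM came to 1 without D4 replicate 2, and D6 at 1 nM to 1 without D6 replicate 1, 2 or 4 or mock replicate 1, 2, 3, 4 or 7. Between siRNAs the counts ranged from 2 to 6 for D1 against D3, 0 to 2 for D3 against D2 and 0 to 1 for D4 against D6 at 10 nM, and 1 to 2 for D4 against D6 at 50 nM, and for D5 at 50 against 0.1 nM from 0 to 3. Depth limits the genes near 1 CPM, and Cyp2b9 and Cyp21a1 could not be tested.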
